A study of Mus musculus with 2 samples.

Results

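Enteroendocrine cells are the hormone-secreting cells of the gut lining, and they were studied here in mouse small intestine profiled by droplet-based single-cell RNA sequencing. The cells were chosen by their chromogranin transcripts: a cell belonged to the set if its UMIs (unique molecular identifiers, which tag single captured RNA molecules) of Chga and Chgb summed to at least 5 and it held no UMI of the leukocyte gene Ptprc. Of 15242 kept cells, 192 met this rule, 119 of 7913 in the library labelled model and 73 of 7329 in the library labelled control. Each group is 1 library of small intestine cells. The series title concerns simulated microgravity and radiation and a compound named CB001. What was done to the model animal, the strain, age and sex, the number of animals behind each library and the part of the small intestine sampled are not in the labels. Cells given the compound are not analysed here. Every difference below is therefore between 2 libraries with no replicate check. No test was possible, and all intervals are 95% intervals that cover counting error only.

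Enteroendocrine cells arise from crypt stem cells through a short-lived progenitor marked by the transcription factor Neurog3, and Neurod1 acts downstream of it. They pack peptide hormones or serotonin into dense-core vesicles, whose chromogranins (Chga, Chgb, Scg2) mark them, and release them in response to food, microbes and irritants. Enterochromaffin cells make serotonin through tryptophan hydroxylase 1 (Tph1). The others make mixtures of peptides, among them secretin (Sct), cholecystokinin (Cck), the glucose-dependent insulinotropic peptide (Gip), ghrelin (Ghrl), proglucagon (Gcg, the source of GLP-1), peptide YY (Pyy), neurotensin (Nts) and somatostatin (Sst). Pyy and Nts are known mainly from the distal small intestine of the mouse and Gip from the proximal part.

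The upstream windows are shown because their genes carry the findings: Sct was the peptide found in most cells (100 of 119 model and 67 of 73 control cells), Tph1 marks the serotonin cells, and Pyy and Nts differed most between the libraries. Each line gives the 250 bases before a RefSeq gene start on the gene's own strand, in build GRCm38.p6. Capitals mark 1 of 4 motifs, searched on both strands. The E-box form CAGCTG, which factors such as Neurod1 are known to bind, is its own reverse complement. The other E-box form searched, CAGATG, reads catctg on the other strand. The GC box GGGCGG reads ccgccc there, and the cAMP response element TGACGTCA is its own reverse complement. No marked motif overlapped another.
Sct, chr7:141279134-141279383, minus strand: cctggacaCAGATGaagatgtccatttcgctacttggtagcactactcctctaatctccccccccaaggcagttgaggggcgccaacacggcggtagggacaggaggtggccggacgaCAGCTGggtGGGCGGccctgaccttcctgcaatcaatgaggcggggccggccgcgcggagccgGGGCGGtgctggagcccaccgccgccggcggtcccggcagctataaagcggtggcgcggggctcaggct
Tph1, chr7:46667378-46667627, minus strand: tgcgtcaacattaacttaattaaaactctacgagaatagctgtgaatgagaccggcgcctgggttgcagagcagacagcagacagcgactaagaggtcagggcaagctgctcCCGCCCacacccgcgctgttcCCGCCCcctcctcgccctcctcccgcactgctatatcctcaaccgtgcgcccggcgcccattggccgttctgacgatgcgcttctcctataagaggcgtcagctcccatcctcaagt
Pyy, chr11:102107833-102108082, minus strand: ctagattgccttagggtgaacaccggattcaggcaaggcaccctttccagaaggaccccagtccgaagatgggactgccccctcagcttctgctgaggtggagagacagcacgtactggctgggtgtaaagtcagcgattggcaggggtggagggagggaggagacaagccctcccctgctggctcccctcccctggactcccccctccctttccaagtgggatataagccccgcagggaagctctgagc
Nts, chr10:102490419-102490668, minus strand: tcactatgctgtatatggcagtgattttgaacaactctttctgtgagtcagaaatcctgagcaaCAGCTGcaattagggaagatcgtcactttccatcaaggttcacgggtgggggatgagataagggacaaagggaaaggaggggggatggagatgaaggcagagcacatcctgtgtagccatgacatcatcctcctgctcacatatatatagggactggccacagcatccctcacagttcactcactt
The Sct window held both E-box forms and the GC box. The Tph1 window, at the second of its 2 listed starts, held only the GC box as its reverse complement (the first start held none), the Nts window only the first E-box form, and the Pyy window none of the 4. Among 32851 windows of this length in the table, the first E-box form was present in 4271, the second in 4745 (14.4%), the GC box in 10756 (32.7%) and the cAMP response element in 508 (1.55%). A match is a stretch of letters and not a measured site.

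The gate was checked on genes it did not use. Neurod1 was detected in 91 of 119 model and 67 of 73 control enteroendocrine cells, against 11 of 2282 model and 6 of 1207 control T cells, the cell type that should lack it. After thinning, as described next, the shares of Neurod1-positive enteroendocrine cells were 60.4% in the model and 59.7% in the control library. Cpe, which trims prohormones, was found in 95 model and 62 control cells, and Scg2 in 62 and 42. The epithelial gene Epcam was found in 115 and 72. Median depth was 8147 UMIs in the model and 12936 UMIs in the control cells, so shares of cells with a UMI are given below also after thinning each cell to 2000 UMIs, which leaves out 8 model and 1 control cells. The mitochondrial share was alike, with medians of 5.16% in model and 5.15% in control enteroendocrine cells. Just inside the gate, with 5 to 7 UMIs of Chga and Chgb, lay 14 model and 7 control cells, and just outside it, with 3 or 4, lay 19 in each library.

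Part of the cells that met the rule also carried markers of another type. At least 50 UMIs of 1 of 6 marker lists were held by 41 of 119 model and 24 of 73 control cells, mostly of the goblet list (24 and 10 cells) or the enterocyte list (16 and 14 cells). One cell in each library held the enteric neuron genes Elavl4 (36 UMIs in the model and 34 in the control cell) and Prph (34 and 38 UMIs) with no Neurod1, and these 2 cells supplied every UMI of Syt1 and Calb2 in the set. The model one held 1131 Sst UMIs and the control one 1655 Vip UMIs, which is all the Vip that was counted. A model cell held 91 UMIs of fibroblast genes, a model cell held 289 UMIs of Paneth genes, and a control cell 173 UMIs of tuft genes. In the model library, 10 cells had at least 10 UMIs of the goblet gene Fcgbp and at most 1 of Neurod1, against 1 such cell in the control library. Among them, 7 model cells formed a narrow group, with 6 to 26 Chgb UMIs, 55 to 98 of the goblet lectin Zg16, 7 to 19 of the mucin Muc2 and only 2563 to 5399 UMIs in all. T cell markers were near 0, with 20 UMIs summed over the model and 9 over the control cells, although 12 and 4 cells held a UMI of Cd3e, Cd3d or Cd3g. The mast cell proteases Cpa3, Mcpt1 and Mcpt2 were at 0, and the whole mast cell list summed to 53 and 63 UMIs. Myeloid genes summed to 374 and 283 UMIs, and plasma and B cell genes to 1820 and 921. The latter were a median of 0.123% of UMIs in model and 0.0855% in control cells, against 0.184% and 0.141% in T cells. No doublet caller was applied, and a further 10 model and 4 control cells that passed the chromogranin limit were set aside for a Ptprc UMI. Goblet markers summed to 5475 CPM in the model and 4477 CPM in the control set and enterocyte markers to 4584 and 4986 CPM, with all 8 goblet and 10 enterocyte genes present, and their part in the results was not tested. Later values marked as without cells of other types drop a narrower set. Left out there were cells with at least 10 Fcgbp UMIs or at least 50 UMIs of the enteric neuron, tuft or fibroblast list. This left 105 model and 69 control cells, so cells of the goblet or enterocyte list with fewer Fcgbp UMIs could stay in. Such values are given for some genes only.

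Enteroendocrine cells made up 1.504% (1.25 to 1.80%) of kept cells in the model library and 0.996% (0.782 to 1.25%) in the control library, a ratio of 1.51 (1.12 to 2.05). Among epithelial cells, taken as cells with Epcam and without Ptprc, they were 115 of 3638 in the model library, or 3.16%, and 72 of 4335 in the control library, or 1.66%. The ratio moved with the filters, most of all with a stricter limit for mitochondrial UMIs, and the cause was not tested. With the limit at 10% in place of 25%, the share was 1.62% of 5540 model cells and 1.77% of 3504 control cells, and the ratio turned to 0.918. That limit left 90 of the 119 model and 62 of the 73 control enteroendocrine cells. With no mitochondrial limit the shares were 1.18% in the model and 0.826% in the control library. When a Neurod1 UMI was also required, which left 91 and 67 cells, they were 1.15% and 0.914%. The median mitochondrial share of all kept cells was 5.38% in the model and 10.8% in the control library.

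The leading hormone of each cell, the one of the 8 peptides with most UMIs, divided the set into the same main classes in both libraries. Sct led in 40 of 119 model cells (33.6%) and 23 of 73 control cells (31.5%), and 28 and 13 of these held at least 10 Sct UMIs. Cck, the hormone of gallbladder contraction, led in 31 model cells (26.1%) and 12 control cells (16.4%). Gip, the incretin of K cells, led in 18 cells of each library, 15.1% of the model and 24.7% of the control set. Nts led in 2 model cells (1.68%, 0.204 to 5.94%) and 7 control cells (9.59%, 3.94 to 18.8%), and this was the class whose ratio between the libraries, 0.175 (0.0178 to 0.921), had an interval that excluded 1. The intervals of the Sct-, Cck- and Gip-led ratios all included 1. Taken as shares of all kept cells instead, Cck-led cells had a ratio of 2.39 (1.19 to 5.12), and the interval of the Nts-led ratio, 0.265 (0.0268 to 1.39), included 1. Sst led in 7 and 3 cells, Ghrl in 3 and 3, Gcg in 2 and 1, and Pyy in none. Ties accounted for 5 and 2 cells, and 11 model and 4 control cells held no UMI of any of the 8. The highest of the 8 was under 10 UMIs in 37 of 119 model and 17 of 73 control cells. Among 82 model and 55 control cells with an untied lead of at least 10 UMIs, Sct led in 34.1% and 23.6%. Cck led there in 30.5% and 20.0%, Gip in 19.5% and 30.9% and Nts in 1.22% and 12.7%. Since these classes were made from the counts, their sizes are a description.

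**Figure D1:**
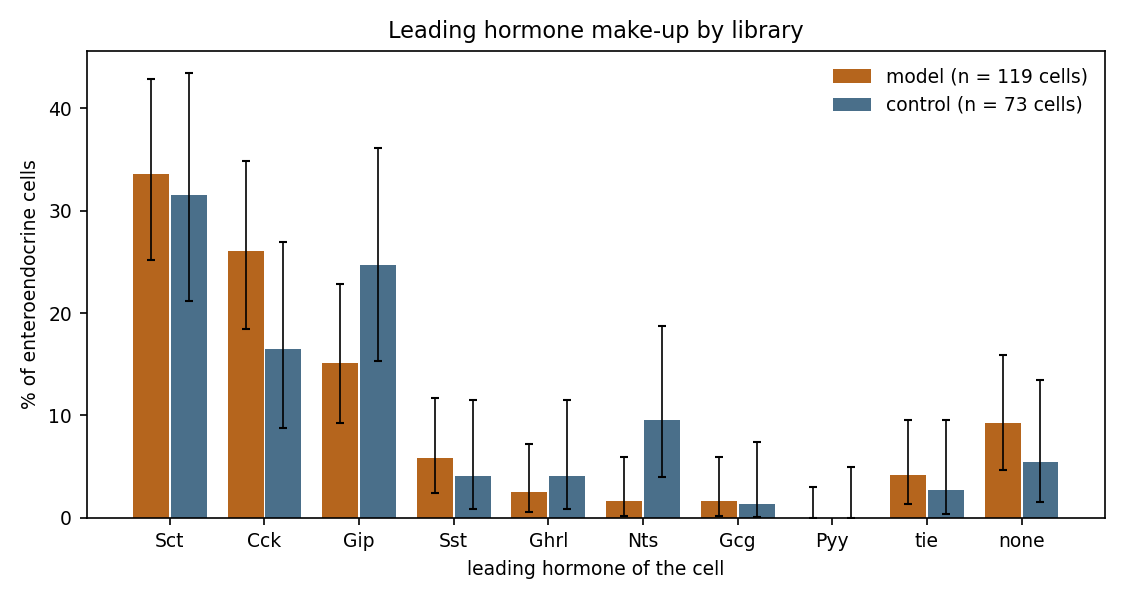
Share of enteroendocrine cells (y axis, %) by the leading hormone (x axis) in the model (left bar) and control (right bar) libraries, with exact 95% binomial intervals. Sct-, Cck- and Gip-led cells form the bulk of both sets, and the Nts-led share is 1.68% in the model and 9.59% in the control set.

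Single classes differed widely in how much of a cell's RNA the hormone made up. In Gip-led cells Gip was a median of 13.7% of all UMIs in the model and 7.60% in the control library, and up to 29.1% and 24.0%. Ghrl reached 30.6% of 1 model cell and 31.2% of 1 control cell. In Sct-led cells Sct was only a median of 0.259% and 0.152%. This class holds the cells in which no other listed peptide was higher, also where all are low. Over all cells the 8 peptides together gave a median of 1.01% of UMIs in the model and 3.43% in the control set.

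Many cells held several hormones. At 10 or more UMIs per hormone, 26 model cells had 2 of the 8, 19 had 3 and 13 had 4, and 16 control cells had 2, 17 had 3, 7 had 4 and 2 had 5. Of 43 model cells with Cck at that level, 38 also had Sct, as did 28 of 30 control cells. Gcg ran with Cck, in 16 of 17 model and 6 of 6 control cells. Pyy at that level was seen in 1 model cell and 8 control cells, all 8 of which also had Sct and 7 of which had Cck. Sst cells stood apart: none of the 7 model or 3 control cells had Cck at that level, and 1 control cell had Sct. The 6 Sst-led model cells other than the one with neuron genes all held Iapp (islet amyloid polypeptide), with 104 of the 105 Iapp UMIs of the model set, and the 3 control ones held all 61 control UMIs. Ghrl UMIs were present in 5 of the 6 model and all 3 control Sst-led cells, 198 and 79 in all. Asic5, an ion channel of the acid-sensing family, was likewise concentrated there, with 49 of 52 model and 19 of 22 control UMIs.

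**Figure D2:**
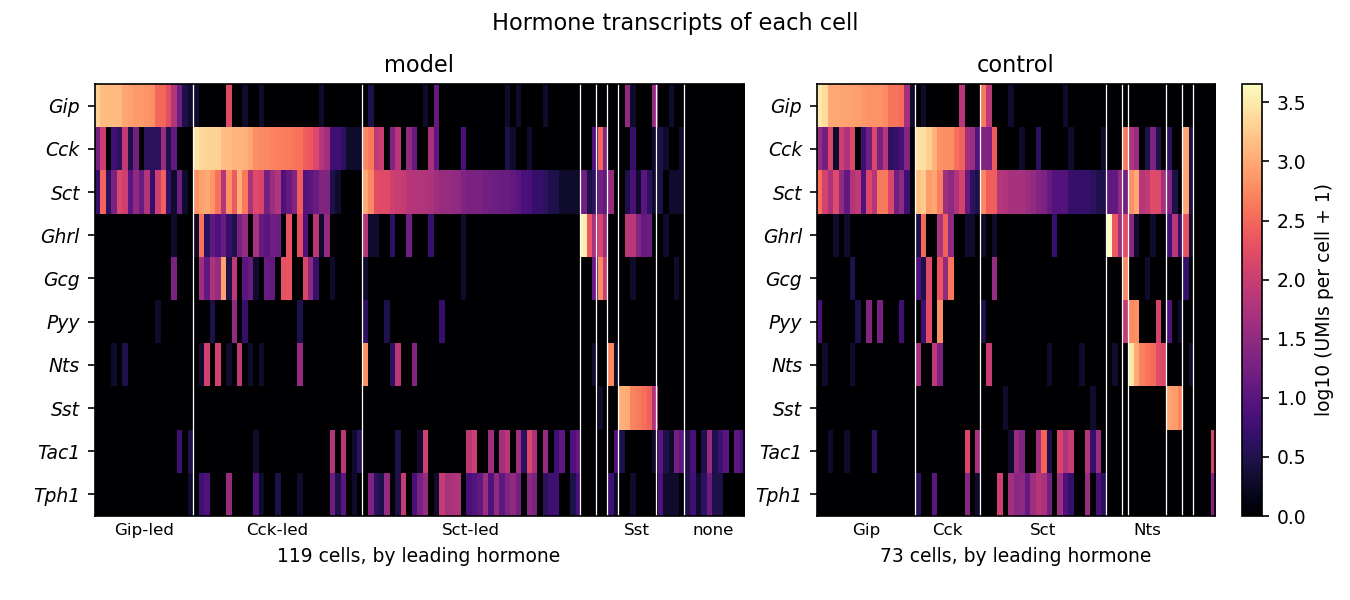
UMIs per cell (colour, log10 of UMIs + 1) of the 8 peptide hormones, Tac1 and Tph1 (rows) in each of 119 model (left) and 73 control (right) enteroendocrine cells (columns), ordered by leading hormone with white lines between classes. Sct runs through most classes, Sst has a class nearly to itself, and Tph1 and Tac1 fill the Sct-led cells with few Sct UMIs.

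The leading classes carried further genes in both libraries. These genes were ranked on the same cells and so describe the classes. In Gip-led cells Pkib, an inhibitor of protein kinase A, had 134 CPM (counts per 1e6 UMIs) in the model and 123 CPM in the control library. CPM is scaled to the UMIs summed over the cells named. The fatty acid carrier Fabp5 reached 4137 CPM in model and 4465 CPM in control Gip-led cells, against 201 CPM in other enteroendocrine cells. Gatm, which makes a creatine precursor, had 148 and 117 CPM there. The cannabinoid receptor gene Cnr1 was confined to 10 of 18 model and 15 of 18 control Gip-led cells but for 1 model and 2 control Sct-led cells and the cells with neuron genes. Cck-led cells were set apart by Cyp2j5, a cytochrome P450 of arachidonic acid, with 57 and 7 UMIs, and by Pzp, an alpha-2-macroglobulin, with 112 and 26. Sct-led cells carried Reg4, a secreted lectin known from enteroendocrine cells, at 2816 CPM in the model and 5759 CPM in the control library, and Tph1 at 984.8 and 1238 CPM. Isl1, a LIM homeobox factor, had 983 CPM in model and 1300 CPM in control Ghrl-led cells, 1023 and 854.9 CPM in Gcg-led cells and 252 and 1261 CPM in Sst-led cells, against 38.9 and 69.7 CPM in Sct-led cells. The Gcg-led values came from 2 model cells and 1 control cell. Without the cell with neuron genes, the Isl1 level of model Sst-led cells was 312.5 CPM.

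Several transcripts better known from liver were counted in these cells. The alpha-fetoprotein gene Afp had 298 UMIs in 8 model cells and 564 UMIs in 9 control cells, against 10 UMIs in 3523 other epithelial cells of the model and 10 in 4263 of the control library. Among other cell types Afp was highest in tuft cells, at 211.0 CPM over both libraries, against 278.6 CPM in the enteroendocrine cells of both. Of that tuft signal, 351 UMIs came from 1 model cell that also held 65 Chga and 228 Chgb UMIs and was set aside for its 3 Ptprc UMIs, and 1 UMI from a control cell. Nearly all Afp UMIs of the enteroendocrine cells came from Sct-led cells, 297 in the model and 556 in the control library. Ambp, the precursor of alpha-1-microglobulin, had 186 UMIs in 37 model cells and 96 UMIs in 17 control cells, against 8 and 1 UMIs in other epithelial cells. Serpina1c, a protease inhibitor gene with near-identical copies among which reads could be split, had 71 and 73 UMIs in Sct-led cells. The acute-phase gene Crp had 27 UMIs in model and 9 UMIs in control Cck-led cells. Tac1 (substance P), Tph1, Cadps and Rab3c of the release machinery and the homeobox gene Lhx1 stood 584- to 995-fold above other epithelial cells in the model and 620- to 959-fold in the control library. The cells were selected on Chga and Chgb, so these ratios are a description.

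Tph1 was detected in 57 of 119 model enteroendocrine cells (47.9%, 38.7 to 57.3%) and 20 of 73 control cells (27.4%, 17.6 to 39.1%). T cells gave a background of 7 of 2282 in the model and 1 of 1207 in the control library, at median depths of 2898 and 3332 UMIs. The 2 libraries differed mainly in cells with little Tph1. Exactly 1 UMI was present in 11 model cells and 1 control cell, and the median over positive cells was 6 UMIs in the model and 24 UMIs in the control library. At 3 or more UMIs the shares were 31.9% (38 cells) and 26.0% (19 cells), a ratio of 1.23 (0.690 to 2.25). After thinning to 2000 UMIs, 35 of 111 model cells (31.5%) and 17 of 72 control cells (23.6%) were positive. When all cells were thinned to 1000 UMIs before the gate the ratio of positive shares was 0.968. The summed level was close, 469.8 CPM in model and 427 CPM in control cells, a ratio of 1.10 (0.987 to 1.23). As a share of all kept cells, those with 3 or more Tph1 UMIs were 0.480% in the model and 0.259% in the control library, a ratio of 1.85 (1.04 to 3.40) that moves with the share of enteroendocrine cells given above.

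The share of cells with Tph1 differed among the leading-hormone classes. Tph1 was found in 31 of 40 model and 15 of 23 control Sct-led cells, in 11 of 31 and 4 of 12 Cck-led cells, and in 1 of 18 and 0 of 18 Gip-led cells, where the exact interval of 0 of 18 reaches 18.5%. Cells without any of the 8 peptides held it in 7 of 11 model and 1 of 4 control cells, and tied cells in 4 of 5 and 0 of 2. Among Nts-led cells it was found in 2 of 2 and 0 of 7. Of cells with at least 10 Tac1 UMIs, 14 of 18 in the model and 11 of 12 in the control library had 3 or more Tph1 UMIs. Across cells, the genes most correlated with Tph1 in both libraries were Reg4 (Pearson r = 0.621 over 119 model cells and 0.721 over 73 control cells), Chga (0.614 and 0.758), the amino acid transporter Slc38a11 (0.578 and 0.765), Shisa2, the homeobox gene Lmx1a, Itprid2, the vesicular monoamine transporter Slc18a1 and Rasal2. Chga was also part of the rule that chose the cells. The correlations are descriptions over cells that share a library, and depth differs among them.

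Part of the listed endocrine genes differed between Tph1-positive and Tph1-negative cells in both libraries. Of 109 listed genes with at least 20 UMIs in each library, 11 were at least 2-fold higher in Tph1-positive cells in both and 18 at least 2-fold lower in both, and none passed 2-fold in opposite directions. The others did not pass 2-fold in both. Over all 7741 genes at that level the shares were 1.19% and 1.55%. Tac1 stood at 1010 CPM in positive and 72.3 CPM in negative model cells, and at 3479 and 9.07 CPM in control cells. Lmx1a, which drives Tph1 in mouse enterochromaffin cells, had 51 UMIs in positive and 5 in negative model cells, and 55 and 0 in control cells. The monoamine transporters Slc18a1 and Slc18a2 were 3.12- and 6.39-fold higher in positive model cells and 7.52- and 39.0-fold higher in positive control cells. Trpa1, the irritant receptor of enterochromaffin cells, had 66 UMIs in positive and 0 in negative model cells, and 56 and 5 in control cells. The sodium channel Scn3a (2.89- and 9.14-fold), the short-chain fatty acid receptor Ffar2 (2.80- and 8.38-fold), Trpm2, Rab3c, Foxa1 and Chga were the other 6 genes higher in both. Of these, Chga was used in choosing the cells. Ddc, the next enzyme of serotonin synthesis, had 244 CPM in positive and 222 CPM in negative model cells, and 494 and 265 CPM in control cells, so transcripts were also counted in cells without Tph1.

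The 18 genes lower in Tph1-positive cells included transcription factors and several, but not all, of the peptides. Isl1 stood at 40.1 CPM in positive and 290.3 CPM in negative model cells and at 15.9 and 335 CPM in control cells. Pax6 was 3.77- and 4.09-fold lower in positive cells and Etv1 2.80- and 3.59-fold, both transcription factors of peptide-hormone lineages. The potassium channel subunit Abcc8, target of sulphonylureas, had 6 UMIs in positive and 59 in negative model cells, and 1 and 64 in control cells. Ffar1, a receptor for long-chain fatty acids, was 4.003- and 3.35-fold lower in positive cells, opposite to Ffar2. The calcium sensor Scgn, Cpe, Gip, Gcg, Ghrl, Pyy, Sst, Iapp, Asic5 and Cnr1 were lower as well. Cck was 0.421 times as high in positive as in negative model cells and 1.30 times in control cells, Sct 0.671 and 0.907 times, and Nts 0.818 and 0.0707 times, so none of these passed 2-fold in both. Pcsk2 and Syt1, lower too, came from few cells, with 46 of 56 model and 53 of 54 control Pcsk2 UMIs in the cells with neuron genes.

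**Figure D3:**
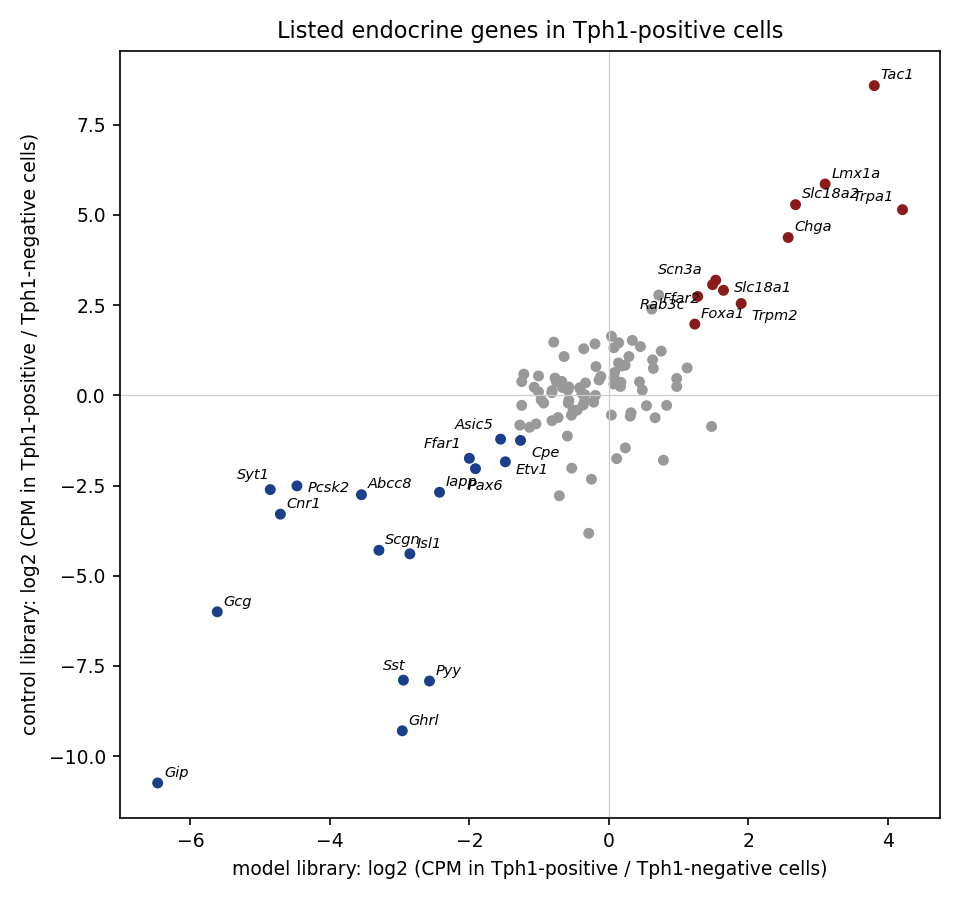
Log2 ratio of CPM in Tph1-positive over Tph1-negative cells for listed endocrine genes, in the model library (x axis) and the control library (y axis), with a side under 3 UMIs set to 3. Red points are genes at least 2-fold higher and blue points genes at least 2-fold lower in both libraries, which run from Tac1 at the top to Gip at the bottom.

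Levels of the hormones were then compared between the libraries in the summed UMIs of all enteroendocrine cells, 1788031 in the model and 1305927 in the control library. Over 7659 genes with at least 50 UMIs, 101 (1.32%) were at least 2-fold higher and 101 (1.32%) at least 2-fold lower in model cells. Among 10510 genes with at least 20 UMIs, the level used for gene lists, the shares were 2.65% higher and 3.18% lower, with a median log2 ratio of -0.04. Of 13 measured peptide genes 4 were at least 2-fold lower, none higher. Pyy had 48 UMIs in 8 model cells and 2292 UMIs in 15 control cells, or 26.9 and 1755 CPM, 65.4-fold lower (49.1 to 88.9) in the model cells. Nts had 1622 UMIs in 17 model cells and 5854 UMIs in 17 control cells, or 907 and 4483 CPM, 4.94-fold lower (4.68 to 5.22). The highest single cell gave 609 Nts UMIs in the model and 3035 in the control library. Both genes remained over 2-fold lower when the 3 cells with most of their UMIs were left out, with ratios of 0.0156 for Pyy and 0.186 for Nts. With the cells that hold Ptprc added, the ratios were 0.0246 for Pyy and 0.355 for Nts. T cells held Nts at 127.8 CPM in the model and 8.72 CPM in the control library, with a UMI in 85 of 2282 and 43 of 1207 cells, and the part of such signal was not tested. The remaining pair were Ucn3, with 12 UMIs in model and 21 in control cells, and a ratio that turned to 2.17 without the 3 richest cells of each library, which gave 19 of the 21 control UMIs, and Vip from the single control neuron-like cell.

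The Pyy difference was present inside the classes that hold most of it. In Cck-led cells Pyy had 38 UMIs in 4 of 31 model cells and 790 UMIs in 3 of 12 control cells. In Nts-led cells it had 0 UMIs in 2 model cells and 1351 UMIs in 3 of 7 control cells. Nts had 797 and 684 CPM in Cck-led and 979 and 239 CPM in Sct-led cells, where 1 model cell gave 609 of the 705 model UMIs. The Nts-led cells, where the rule places the cells rich in Nts, had 1 and 557 Nts UMIs in the 2 model cells and 149 to 3035 in each of the 7 control cells. Of cells outside the gate with at least 10 UMIs of a listed peptide, Nts was the highest in 1 model and 3 control cells and Pyy in none. When all cells were thinned to 1000 UMIs before the gate, the direction of Nts turned, to 36.6-fold higher in 64 model than in 39 control cells, while Pyy stayed lower.

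Some genes that vary along the intestine also differed in the other epithelial cells. The bile acid transporter Slc10a2 and the bile acid binder Fabp6, both ileal, had 16 and 36 UMIs in the model and 67 and 98 UMIs in the control library, 4.91- and 3.19-fold lower in the model. Slc51b, a bile acid exporter subunit, had 3095 and 2446 UMIs, a ratio of 1.08, and the iron exporter gene Slc40a1 214 and 284 UMIs, a ratio of 0.643. Pdx1, a factor of the duodenum, had 224 and 28 UMIs, 6.83-fold higher (4.60 to 10.5), and Gata4 was 1.19-fold higher. In the enteroendocrine cells themselves none of 7 measured genes listed as proximal passed 2-fold. Of 5 listed as distal, Nts and Pyy were lower and none higher. Over all genes at that level 2.65% were higher and 3.18% lower. Pdx1 had 19 and 10 UMIs, a CPM ratio of 1.39 (0.614 to 3.34). Gata4 had 128 and 87, a ratio of 1.075 (0.812 to 1.43), and Onecut2 643 and 313, with a ratio interval of 1.31 to 1.72. Proximal Dmbt1 stood at 1.365, but Gip at 0.594, Ghrl at 0.671 and Slc40a1 at 0.538, and distal Gcg at 1.26. The stretch of intestine sampled was not stated for either library, and its part in the Pyy and Nts results was not tested.

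The other measured peptides, those with at least 20 UMIs, did not pass 2-fold in all cells together. Gip had 13211 and 16243 UMIs, a CPM ratio of 0.594. Gip-led cells, a class chosen by Gip itself, carried 60089 CPM in the model and 42638 CPM in the control library. Sct stood at 0.650, Ghrl at 0.671 and Tac1 at 0.690 of the control level. Cck stood at 1.38-fold (2.08-fold without the 3 richest cells of each library), with 53743 CPM in model and 52130 CPM in control Cck-led cells, which were chosen by Cck. T cells held Cck at 488.7 CPM in the model and 11.8 CPM in the control library, with a UMI in 445 of 2282 and 57 of 1207 cells, and the part of such signal was not tested. Gcg was 1.26-fold, or 2.01-fold without cells of other types and 2.35-fold without the 3 richest cells, and Sst 1.25-fold higher, yet without cells of other types, the neuron-gene cell with 1131 Sst UMIs among them, Sst turned to a ratio of 0.845. Gast (gastrin) was counted 8 times in model and 1 time in control cells, a ratio of 5.84 (0.783 to 259), Gal 3 and 3 times, and Insl5, known from colon, was at 0 in both, under the 3 UMIs that a count of 0 allows.

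**Figure D4:**
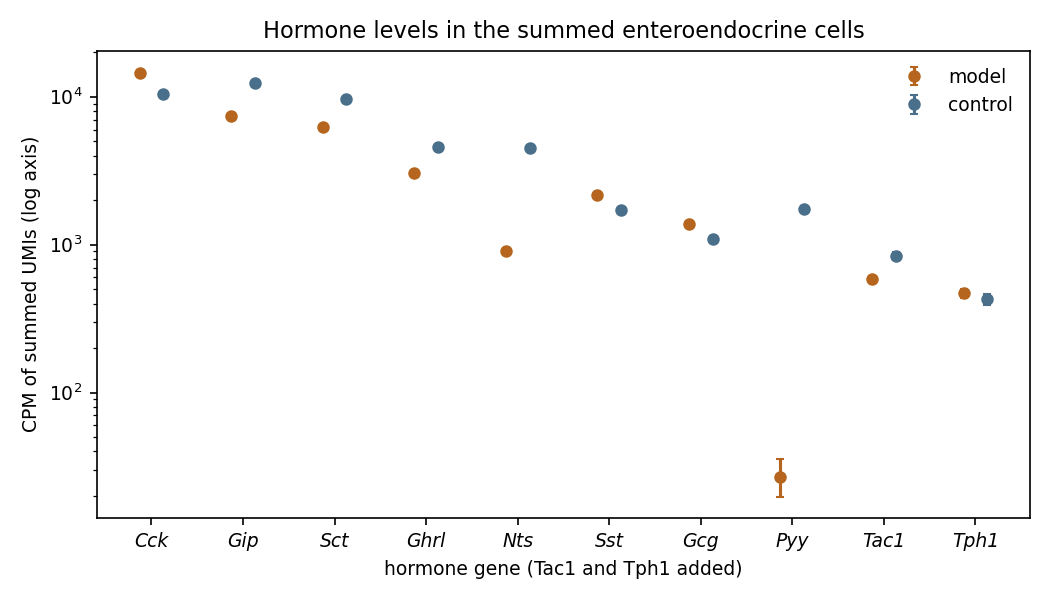
CPM (log axis) of 8 peptide hormones, Tac1 and Tph1 in the summed UMIs of 119 model (left point) and 73 control (right point) enteroendocrine cells, with exact 95% Poisson intervals that are often smaller than the points. Pyy stands at 26.9 CPM in model and 1755 CPM in control cells, Nts at 907 and 4483 CPM, and Tph1 at 469.8 and 427 CPM.

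The machinery shared by enteroendocrine cells stayed mostly within 2-fold. Of 10 prohormone processing genes, 13 serotonin-pathway genes and 21 vesicle release genes, none passed 2-fold in either direction, and their median log2 ratios were -0.40, -0.37 and -0.25. The prohormone convertase Pcsk1 had 597 UMIs in model and 506 in control cells, a ratio of 0.862, and Snap25 of the fusion complex 260 and 197, a ratio of 0.964. Of 28 transcription factors, Onecut3 was the only one higher and Hhex, with 11 and 24 UMIs in 4 and 3 cells, the only one lower. Their median log2 ratio was -0.42, with Neurod1 at 0.748, Insm1 at 0.613, Rfx6 at 0.562 and Isl1 at 0.598 of the control level. At a gate of 3 UMIs the ratio was 1.10 for Neurod1 and 1.004 for Isl1, and with thinning to 1000 UMIs before the gate 1.08 for Neurod1. Neurog3, the progenitor factor, was detected in 10 of 119 model and 6 of 73 control cells, 8.40% and 8.22%. Cells with at least 5 UMIs summed over the cycling genes were 25 of 119 and 16 of 73, 21.0% and 21.9%, with median depths of 29862 and 29349 UMIs.

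Nutrient and signal receptors and channels were also mostly within 2-fold. Of 18 receptor genes 1 was higher, the GLP-1 receptor Glp1r, with 22 UMIs in 10 model cells and 5 UMIs in 4 control cells. T cells held 677 and 394 Glp1r UMIs, and their part in this value was not tested. Gprc5c (15 and 22 UMIs) and Npy1r (6 and 15 UMIs), a receptor for peptides of the neuropeptide Y family, were lower. Of 14 excitability genes Cacnb2 (8 and 17 UMIs) and Kcnh6 (6 and 16 UMIs) were lower. Levels of Ffar1 stood at 0.604, Ffar2 at 0.678 and Cnr1 at 0.526 of the control level, and Trpa1 at 0.790. The cells with neuron genes gave 33 of the 67 model and 31 of the 93 control Cnr1 UMIs. The Cnr1 ratio without these cells is not given here and could lie past 2-fold. The list of 8 granin genes also counted Scgn, a calcium sensor that is not itself a granin. Scgn alone passed 2-fold, with 139 UMIs in 43 model cells and 315 UMIs in 45 control cells, a ratio of 0.322. The control cell with neuron genes gave 113 of those UMIs, and without cells of other types the ratio was 0.551, no longer past 2-fold. It turned to 1.22 when cells were thinned to 1000 UMIs before the gate.

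Genes were named by the size of the ratio bound nearest 1, among genes whose level in enteroendocrine cells was not far below that in other cells. The interferon-induced membrane protein gene Ifitm3 led the higher genes, with 331 UMIs in 38 of 119 model cells and 27 UMIs in 11 of 73 control cells, 8.95-fold (6.04 to 13.8). The ratio was 5.49 with the Ptprc-positive cells added and 4.87 when cells were thinned to 1000 UMIs before the gate. It was higher in each large class, with 206 and 24.9 CPM in Sct-led, 94.3 and 18.7 CPM in Cck-led and 320 and 16.4 CPM in Gip-led cells. In other epithelial cells Ifitm3 had 125.5 CPM in the model and 119.9 CPM in the control library, and in T cells 50.4 and 44.9 CPM. Of 18 measured interferon-stimulated genes, Bst2 was at least 2-fold higher (53 and 18 UMIs) and Usp18 at least 2-fold lower (30 and 46 UMIs), with a median log2 ratio of -0.36.

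The next group of higher genes, Cyp2j5, Pzp and Onecut3, belonged to Cck-led cells. Cyp2j5 had 59 UMIs in 14 model cells and 7 UMIs in 2 control cells, 6.16-fold (2.81 to 16.0). Pzp had 121 UMIs in 19 cells and 26 UMIs in 5 cells, 3.40-fold. Onecut3, a homeobox factor, had 125 UMIs in 23 cells and 30 UMIs in 12 cells, 3.04-fold (2.03 to 4.70). Cck-led cells were 26.1% of the model and 16.4% of the control set, a ratio of 1.585 (0.791 to 3.39), and the part of this was not tested. Within Cck-led cells the levels were 128 and 32.8 CPM for Cyp2j5, 251 and 122 CPM for Pzp and 229 and 89.0 CPM for Onecut3. Pzp was 1.22-fold higher when cells were thinned to 1000 UMIs before the gate.

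The other higher genes included crypt, replication and metabolic genes. Of 5 measured crypt stem genes, Olfm4 and Ascl2 (35 UMIs in 12 model cells and 6 UMIs in 3 control cells) were at least 2-fold higher and none lower. Olfm4, a crypt stem cell gene, had 2356 UMIs in 51 model cells and 815 UMIs in 29 control cells, 2.11-fold, and 1 control cell gave 380 of its UMIs. Without the 3 richest cells of each library the ratio was 5.66, and without cells of other types 1.86. In other epithelial cells Olfm4 had 938 CPM in the model and 1252 CPM in the control library. Myc had 85 UMIs in 23 cells and 13 UMIs in 9 cells, 4.78-fold (2.65 to 9.34). The replication genes Mcm6 (2.68-fold) and Uhrf1 (2.70-fold), the nucleotide enzyme Prps2 (3.37-fold), the serine enzyme Shmt2 (3.39-fold) and the methyltransferase Prmt7 (4.16-fold) were higher too. Mcm6, Uhrf1 and Prps2 turned below 1 in the small set left by thinning before the gate.

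The other lower genes included defence genes of the epithelial surface. Duox2, which makes hydrogen peroxide at the epithelial surface, had 20 UMIs in 12 model cells and 72 UMIs in 18 control cells, 4.93-fold lower (2.97 to 8.54), and its maturation factor Duoxa2 had 11 and 40 UMIs. In other epithelial cells Duox2 had 12.8 CPM in the model and 90.4 CPM in the control library. The lectin Reg3g had 980 and 2227 UMIs, 3.11-fold lower, and 1674 and 2381 CPM in other epithelial cells. Apol10a was 4.75-fold, Spink1, a trypsin inhibitor, 2.23-fold, Osr2 2.74-fold, Car8 2.69-fold (a ratio of 0.711 with thinning before the gate) and Nrep 5.97-fold lower. A single control cell gave 36 of the 61 control UMIs of Nrep. T cells also held Reg3g, at 441 CPM in the model and 343 CPM in the control library, and the part of free RNA in the enteroendocrine values was not tested. Afp was 2.59-fold lower, but its ratio was 0.520 without the 3 richest cells of each library and 0.730 with the Ptprc-positive cells added. Fabp5 was 2.34-fold lower over all cells. Gip-led cells, which hold most of it, had 4137 and 4465 CPM. They were 15.1% of the model and 24.7% of the control set, a ratio of 0.613 (0.301 to 1.25), and the part of this was not tested.

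**Figure D5:**
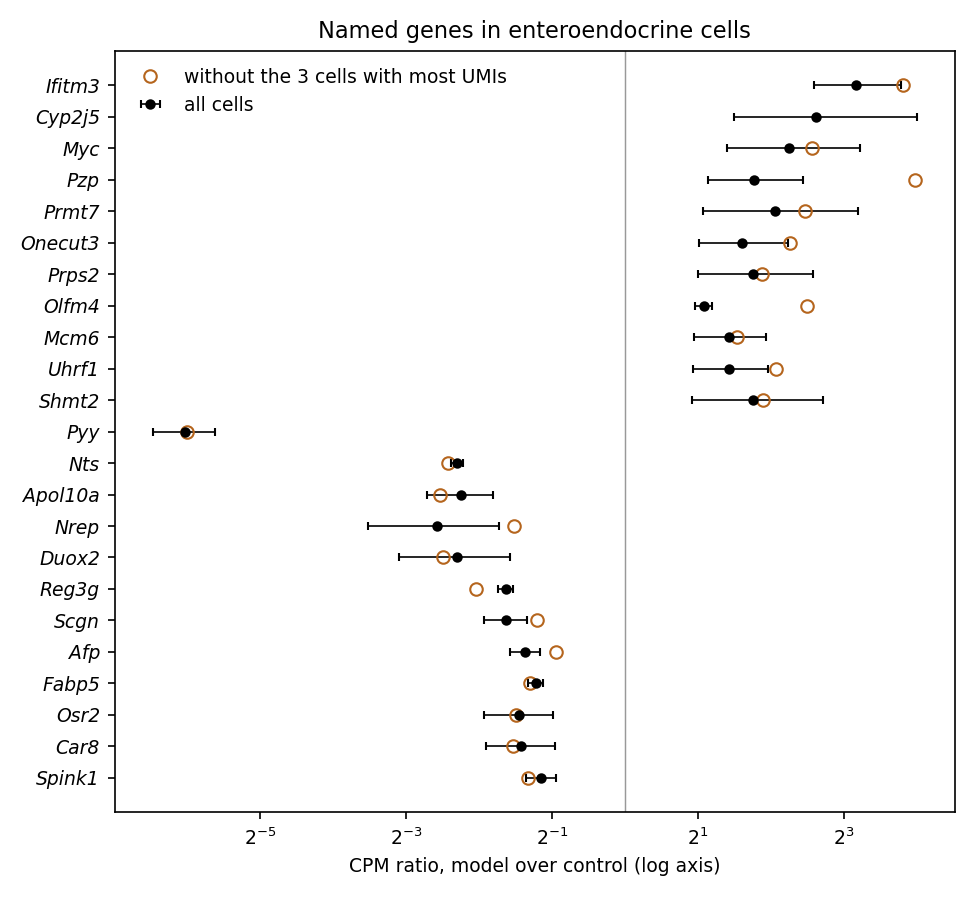
Ratio of CPM in model over control enteroendocrine cells (x axis, log axis) for the named genes, higher ones above and lower ones below, with exact 95% binomial intervals (black) and the ratio without the 3 cells of each library that hold most UMIs of the gene (open circles, none for Cyp2j5, which then has 0 control UMIs). Ifitm3 stands at 8.95 and Pyy at 0.0153.

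Genes of stress and metabolism showed few differences in these cells. Of 24 measured p53 targets 1 was at least 2-fold higher, the DNA repair gene Ddb2 with 23 and 8 UMIs, and none lower, with a median log2 ratio of -0.05. The cell cycle inhibitor Cdkn1a had 630 and 658 UMIs, a ratio of 0.699. Of 20 genes of the unfolded protein response and 16 immediate early and heat shock genes none passed 2-fold. Of 22 NRF2 antioxidant genes Gsta1 was higher (40 and 14 UMIs) and Osgin1 (19 and 29) and Me1 (10 and 16) lower. Of 14 measured circadian clock genes, Dbp was at least 2-fold higher and Npas2 (10 and 19 UMIs) at least 2-fold lower. Their median log2 ratio was 0.32. The clock output gene Dbp had 18 UMIs in 9 model cells and 2 UMIs in 2 control cells, 6.57-fold (1.57 to 58.4). In the model library 3 cells gave 12 of its UMIs. In other epithelial cells Dbp had 7.53 CPM in the model and 1.74 CPM in the control library, and Npas2 8.05 and 17.0 CPM. The 24 cytosolic ribosomal protein genes had a median log2 ratio of 0.40 and the 13 mitochondrially encoded genes one of -0.31, with none past 2-fold.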

How the data were processed

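Cell suspensions of mouse small intestine were made, per the labels, after removal of mesentery and Peyer's patches and digestion with EDTA, then collagenase and DNase. The deposited matrices hold raw UMI counts per gene and barcode. The file headers name Cell Ranger 7.0.1 and the submitters' notes name Cell Ranger 4.0 and GRCm39. The annotation and the handling of introns are not given in these sources. The libraries hold 11468 model and 10259 control barcodes (76701215 and 61370270 UMIs) and share 28 barcode sequences. Cells needed 500 UMIs, 200 genes and at most 25% mitochondrial UMIs.

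The cells, classes and gene lists were chosen with earlier results of these data known. UMIs were summed per library and scaled to CPM. Share intervals are exact Clopper-Pearson, level intervals exact Poisson and ratio intervals exact binomial, at 95%. In ratios between Tph1-positive and Tph1-negative cells a side under 3 UMIs was set to 3. Genes named between libraries were the 12 highest and 12 lowest by the interval bound nearest 1, with 50 UMIs in the higher library, a UMI in 10% of its cells, and at least 0.2 of the highest level in other populations. Some genes that count in these totals are not reported here. Class genes, genes over other epithelium and genes following Tph1 were ranked by ratio or correlation; other listed genes past 2-fold were named after their values were seen. Other cell types were taken by marker gates. Python 3.11.15, NumPy 2.4.6 and SciPy 1.17.1 were used, tested on simulated data. Promoter windows come from RefSeq, matched by symbol for all 4 genes.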

Additional observations from a re-analysis of the deposited data

How the results depend on the processing

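No paired analysis was possible because each group holds 1 library, and for the same reason no replicate could be left out. Values below are log2 ratios of model over control unless named counts. The enteroendocrine share of kept cells (0.59) turned to -0.12 with a mitochondrial limit of 10%, and the Tph1-positive share (0.81) to -0.0472 when cells were thinned to 1000 UMIs before the gate; the cause was not tested. The ratios of the Sct-, Cck-, Gip- and Nts-led shares kept within their intervals under every alternative that gave a value; thinning before the gate gave none for the Nts-led share. Genes at least 2-fold higher and lower, 101 and 101 at 50 UMIs, were 278 and 334 at 20 UMIs, 18 and 14 at 200 UMIs, 183 and 157 at a gate of 3, 208 and 207 with the mean of per-cell CPM, and 10 and 3 with thinning before the gate, which leaves 64 and 39 cells and so fewer genes measured. That thinning also turned Nts (-2.31) to 5.19, Prps2 (1.75) to -0.71, Mcm6 (1.42) to -0.71, Uhrf1 (1.43) to -1.72 and Scgn (-1.63) to 0.29. Of 536 comparisons of 39 gene levels under alternatives, 518 had the same direction, 344 lay within the main interval and 187 outside it. Alternatives that keep cells with 3 of 5 markers or cells with Neurod1 were chosen after seeing the data. So was the one that drops cells of other types by the narrower rule given above. With 119 and 73 cells, subtype differences under about the widths of the printed intervals were not detectable.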

Other observations

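Secretin transcripts were not limited to the enteroendocrine cells. Among goblet cells, taken by Fcgbp, Clca1 and Spdef, 221 of 312 in the model library (70.8%, 65.5 to 75.8%) and 209 of 339 in the control library (61.7%, 56.2 to 66.9%) held Sct, at median depths of 10090 and 7813 UMIs. Tuft cells gave 47 of 66 and 56 of 78. T cells gave 288 of 2282 and 96 of 1207, at 2898 and 3332 UMIs. Enterocytes gave 22.8% of 1758 cells and 21.5% of 2195 cells at 12331 and 5149 UMIs. Chgb was found in 2.24% of model and 3.83% of control goblet cells, and Tph1 in 1 and 0 of them. The highest Sct count in a goblet cell was 23 UMIs in the model and 146 in the control library.

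Cells that the gate leaves out also held peptide hormones. Of those with no more than 4 UMIs of Chga and Chgb or with Ptprc, 48 in the model and 20 in the control library had at least 10 UMIs of a listed peptide. Sct was the highest in 18 and 14 of them, Gip in 10 and 1, Cck in 7 and 0, Ghrl in 6 and 1 and Sst in 4 and 1. Of these Sct cells, 15 of 18 in the model and 9 of 14 in the control library held at least 50 UMIs of the goblet mucin Muc2. The 10 Gip cells of the model library had a median of only 1017 UMIs.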
